A study of Mus musculus with 2 samples.

Results

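Distal intergenic peaks of accessible chromatin were examined: those lying outside every protein-coding gene, more than 1 kb from every annotated transcript start, and 10 to 100 kb from the nearest protein-coding start. A peak had to be in the longer peak list of replicate 1, to overlap a peak of replicate 2 by at least 1 bp and to lie on chromosomes 1 to 19, and its centre decided its position against the GENCODE M21 annotation. There were 12244 such peaks among 72927 shared peaks, which is 16.8%. Among the shared peaks position alone chose them, and no density, footprint or sequence value was used by the rule. The need for overlap does bear on strength and footprints, with values given below. The other shared peaks were 28376 within 1 kb of a transcript start, 21406 in coding genes, 4269 intergenic ones 1 to 10 kb from a coding start and 6632 more than 100 kb away.

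The data are DNase-seq of the gastrocnemius, a large calf muscle, from male B6CASTF1/J mice aged 4 days, first-generation hybrids of a C57BL/6J and a CAST parent. There was 1 group of 2 biological replicates, with no treatment and no second genotype, so the text gives levels and the spread between 2 libraries and makes no contrast between conditions. Each label speaks of 3 males, both libraries carry the same donor entry, and sequencing instruments are named for replicate 2 alone. Each library is bulk tissue, so a peak present in fewer nuclei and a peak less open in each nucleus cannot be told apart. Promoter peaks were present in both libraries for 9 of 10 skeletal muscle marker genes, 4 of 5 endothelial and 4 of 5 fibroblast markers, and 1 of 5 neuronal markers. They were present for 0 of 5 hepatocyte, 0 of 5 lymphocyte and 0 of 5 keratinocyte markers.

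DNase I cuts DNA most readily where nucleosomes are displaced, and outside promoters such sites include enhancers and boundary elements. A transcription factor that stays on its site shields a few bases from the enzyme and leaves a footprint inside the peak. CTCF, a zinc finger protein that marks domain boundaries and anchors chromatin loops, leaves a long footprint. In muscle, MYOD and the other myogenic basic helix-loop-helix factors bind E-boxes of the form CAGCTG, MEF2 factors an AT-rich site and TEAD factors the MCAT site.

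The sequences that carry the results on footprints are printed here from the plus strand of GRCm38 (mm10), the C57BL/6J reference, and all lie in intergenic sequence as defined above. The next 3 show the site types compared below: a CTCF site, a pair of CAGCTG E-boxes in 1 peak, and an NFI site, each with 10 bases on either side and the match in capitals. Each was the strongest distal peak whose match to that motif lay wholly in a footprint of both libraries.
CTCF site 76775 bp upstream of Chd2, chr7:73618505-73618536: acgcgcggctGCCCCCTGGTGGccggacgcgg
E-box 11393 bp downstream of the Pxt1 start, chr17:28930847-28930872: gatgattttcCAGCTGgctggcttcc
E-box of the same peak, chr17:28930921-28930946: ctgtttggccCAGCTGgagagctcag
NFI site 31568 bp upstream of Wnt7b, chr15:85614020-85614054: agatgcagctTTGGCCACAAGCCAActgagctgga

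The next sequences are whole peaks beside genes of muscle, of satellite cells (the stem cells of muscle), of the circadian clock and of the immediate early response. Capitals mark bases in a footprint of both libraries in the peaks near Pax7, Hk2 and Hlf. In the peak near Fos they mark the CArG box, the site of SRF. The peak near Fos was chosen after its values were seen.
Pax7, 25323 bp upstream, chr4:139858761-139858940: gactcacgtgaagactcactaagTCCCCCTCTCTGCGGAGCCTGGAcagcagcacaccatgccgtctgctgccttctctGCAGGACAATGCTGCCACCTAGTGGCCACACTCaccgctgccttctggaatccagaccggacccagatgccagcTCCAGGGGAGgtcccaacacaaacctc
Hk2, 58557 bp downstream of its start, chr6:82714361-82714500: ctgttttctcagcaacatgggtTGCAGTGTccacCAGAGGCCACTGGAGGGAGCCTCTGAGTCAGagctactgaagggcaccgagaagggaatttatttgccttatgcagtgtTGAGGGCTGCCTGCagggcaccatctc
Hlf, 27166 bp upstream, chr11:90417981-90418140: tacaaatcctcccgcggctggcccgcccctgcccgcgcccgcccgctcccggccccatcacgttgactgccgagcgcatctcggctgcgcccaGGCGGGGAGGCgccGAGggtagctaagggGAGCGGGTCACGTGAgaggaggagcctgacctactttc
Fos, 12241 bp downstream of its start, chr12:85486021-85486240: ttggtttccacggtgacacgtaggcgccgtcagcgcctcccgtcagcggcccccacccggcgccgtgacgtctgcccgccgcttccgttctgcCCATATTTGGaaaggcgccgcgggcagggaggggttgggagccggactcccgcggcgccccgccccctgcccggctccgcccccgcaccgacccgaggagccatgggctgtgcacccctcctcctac

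The last 2 are among the strongest distal peaks. The first holds mostly repeated sequence and the second lies at a noncoding start. The part of either in their densities was not tested. Capitals again mark bases in a footprint of both libraries.
Igf2bp3, 21574 bp upstream, chr6:49236441-49236620: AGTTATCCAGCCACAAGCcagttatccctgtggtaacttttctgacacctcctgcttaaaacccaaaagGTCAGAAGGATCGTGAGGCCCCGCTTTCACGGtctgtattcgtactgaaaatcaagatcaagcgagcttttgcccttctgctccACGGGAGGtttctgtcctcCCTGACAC
Zfp239, 16514 bp downstream of its start, chr6:117879481-117879700: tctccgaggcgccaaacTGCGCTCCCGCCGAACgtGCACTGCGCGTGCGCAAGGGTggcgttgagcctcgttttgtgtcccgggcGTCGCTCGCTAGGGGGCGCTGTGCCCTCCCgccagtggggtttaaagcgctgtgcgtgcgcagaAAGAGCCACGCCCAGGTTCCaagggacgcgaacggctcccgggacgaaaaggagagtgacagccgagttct

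The distal peaks were of middling strength and were reproduced by the other library about as often as peaks in genes. Of 15558 peaks of replicate 1 in this position, 78.7% overlapped a peak of replicate 2, against 77.5% of peaks in coding genes, 87.1% of peaks within 1 kb of a start and 64.7% of peaks more than 100 kb away. Of 21733 peaks of replicate 2 in this position, 56.2% overlapped one of replicate 1. The longer list of replicate 2 held 123291 peaks and that of replicate 1 held 94295.

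The cut density, the authors' measure of cutting at a peak, had a median of 0.938 over the distal peaks in replicate 1 and 0.713 in replicate 2. In replicate 1 it ran from 0.0810 to 22.4, with the middle 50% of peaks between 0.635 and 1.58. In replicate 2 it ran from 0.050 to 14.1, with the middle 50% between 0.480 and 1.15. Densities below 1 were whole multiples of 1 step per library, within a tolerance of 0.1 step, and the step of replicate 1 was 2.03 times that of replicate 2. How many reads stand behind a value was not given, and the densities therefore carry no counting error here.

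Within each library every peak was ranked by density among all peaks of its own list, from 0 to 100. The median percentile of the distal peaks was 53.3 in replicate 1 and 64.7 in replicate 2, a mean of 59.0 ± 8.08 (SD, n = 2). All shared peaks had medians of 59.9 and 69.3. Without the need for overlap the median in this position was 43.8 for peaks of replicate 1 and 45.1 for those of replicate 2. The longer list of replicate 2 placed the same shared peaks higher, so percentiles are compared within a library. Peaks within 1 kb of a start had medians of 75.8 and 81.5, intergenic peaks at 1 to 10 kb 62.9 and 71.95, peaks in coding genes 52.9 and 63.0, and peaks more than 100 kb from a coding start 34.5 and 48.1. The order was the same in both libraries, and the distal peaks lay nearest to those in genes.

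The libraries ordered the distal peaks alike. Spearman's rho of the 2 densities across the 12244 peaks was 0.912, a description over peaks of the same pair of libraries. The density of replicate 1 was higher at 10927 peaks (89.2%), with a median ratio of 1.37. Only 122 peaks (0.996%) departed from that ratio by more than 2-fold. The ratio was 1.24 over the 3332 peaks of lowest GC content and 1.48 over the 3011 peaks of highest GC content, and the part of base composition in the difference between libraries was not tested.

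**Figure D1:**
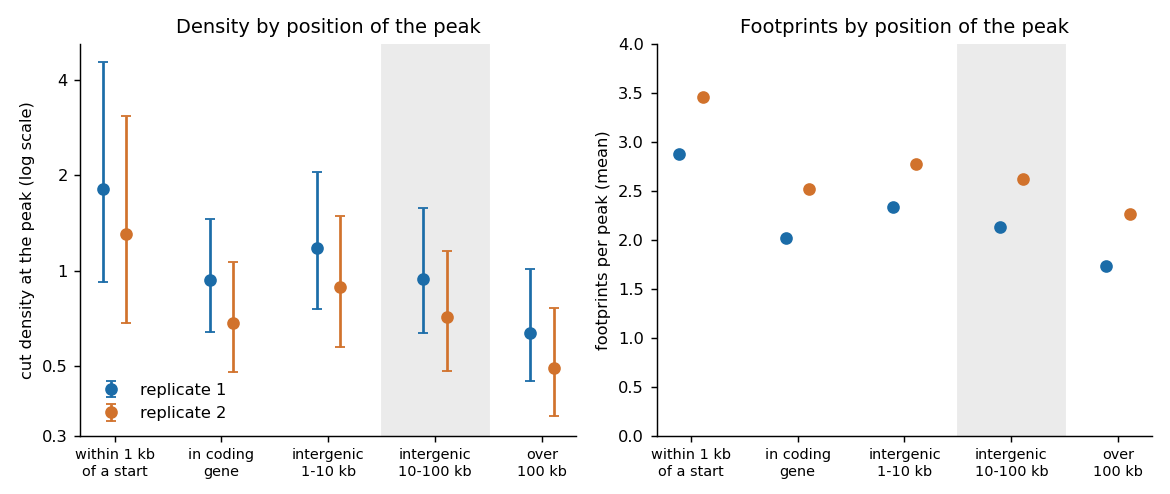
Cut density (left, log axis, points are medians and bars span the middle 50% of peaks) and mean number of footprints per peak (right) for shared peaks by position, with replicate 1 in blue and replicate 2 in orange. The shaded class holds the 12244 distal intergenic peaks, whose median densities of 0.938 and 0.713 sit beside those of peaks in coding genes and above those of peaks over 100 kb from a coding start.

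The stretch of genome in which a distal peak could lie was 491.8 Mb, 20.5% of the sequenced bases of the 19 chromosomes. It held 24.9 peaks per Mb, against 23.9 in coding genes, 31.6 in intergenic sequence 1 to 10 kb from a coding start, 9.18 beyond 100 kb and 30.4 over all. Peaks were sparser and weaker toward 100 kb, and neighbouring intervals differed little. At 10 to 20 kb there were 26.6 peaks per Mb, at 30 to 40 kb 27.4, at 60 to 70 kb 22.1 and at 90 to 100 kb 19.8. The median percentile was 59.3 in replicate 1 and 69.98 in replicate 2 at 10 to 20 kb, and 46.6 and 61.4 at 90 to 100 kb. The lists of each library alone were also sparser far from a start, with 33.0 and 45.9 peaks per Mb in the nearest interval and 25.5 and 39.1 in the farthest.

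**Figure D2:**
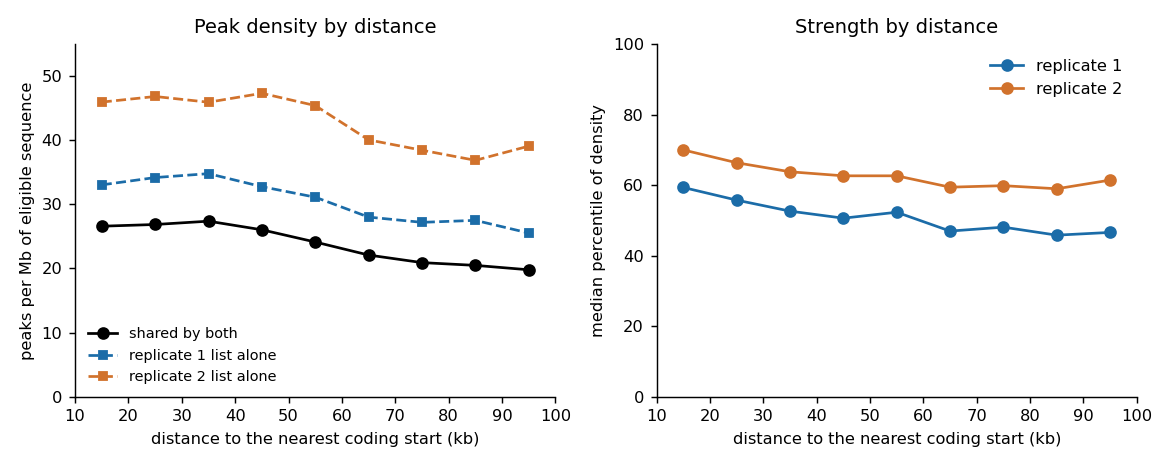
Peaks per Mb of eligible sequence (left) and median percentile of density (right) in 10 kb intervals of distance from the nearest coding start, for the shared peaks (black) and each library (blue, replicate 1, and orange, replicate 2). Shared peaks numbered 26.6 per Mb at 10 to 20 kb and 19.8 at 90 to 100 kb, and the median percentiles were lower in the farthest interval than in the nearest in both libraries.

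The limits of 10 and 100 kb cut through peaks of ordinary strength. The peak nearest to the lower limit on the outer side lay 9993 bp from the Cep19 start with densities of 0.635 and 0.377, and the nearest on the inner side 10001 bp from Tbc1d22a with 0.959 and 0.806. At the upper limit a peak 99999 bp from Dnajb6 had densities of 0.547 and 0.716 and was kept, while one 100017 bp from Ralgapa2 with 1.55 and 0.986 was not.

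Upstream peaks outnumbered downstream ones, 7483 (61.1%) to 4761, and 316.7 Mb of the eligible sequence lay upstream against 175.1 Mb downstream. Per Mb there were 23.6 upstream and 27.2 downstream. Chromosome 11 had most peaks for its eligible sequence, 39.9 per Mb, and chromosome 7 fewest, 19.1 per Mb. The nearest other shared peak was at a median of 5790 bp, and 4632 distal peaks (37.8%) had none within 10 kb. The share with one within 10 kb was 62.2%, against 71.7% of all shared peaks, 66.2% of those in coding genes and 44.0% of those beyond 100 kb. Peaks lying in the body of an annotated long noncoding RNA gene numbered 1418 (11.6%), close to the 10.3% of the eligible bases in such genes.

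In base composition the distal peaks resembled peaks in genes and not promoters. The 150 bases at the centre had a median GC content of 54.7%, against 55.3% in coding genes, 65.3% within 1 kb of a start and 46.7% in 24488 windows of the same length 1 kb to either side of the distal peaks. The median ratio of observed to expected CpG was 0.272, against 0.256 in coding genes and 0.745 within 1 kb of a start. The centre base was soft-masked as repeated sequence in 922 peaks (7.53%), against 28.0% of the neighbouring windows and 38.2% of the eligible bases.

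Most distal peaks held a footprint in both libraries. A footprint overlapped 90.2% of them in replicate 1 and 93.5% in replicate 2, a mean of 91.9% ± 2.32 (SD, n = 2). In both libraries at the same peak this held for 10567 peaks (86.3%), against 82.8% of all shared peaks, 84.6% of those in coding genes, 80.8% within 1 kb of a start and 76.4% beyond 100 kb. Only 318 distal peaks (2.60%) had none in either library. Each peak held a mean of 2.13 footprints in replicate 1 and 2.62 in replicate 2. Without the need for overlap, 68.2% of peaks of replicate 1 in this position and 48.7% of those of replicate 2 had a footprint in both libraries.

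Footprint calls depended on density. Among distal peaks with a mean percentile up to 20, 34.6% had a footprint in both libraries, and among those above 80, 99.7% did. At equal strength the classes lay close together, with 86.5% of distal peaks, 85.2% of peaks in coding genes and 89.4% of peaks beyond 100 kb between percentiles 40 and 60, while peaks within 1 kb of a start had 64.3%. The shorter peak lists held 7054 distal peaks (57.6%) in both libraries, against 63.7% of all shared peaks.

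Footprints were concentrated at the centre of the peak. The bases in the 10 to the right of the centre lay in a footprint in 36.2% of peaks in replicate 1 and 39.5% in replicate 2, and those 140 bases or more away in 0.703% and 1.58%. Coverage levelled off at 50 to 60 bases to either side, at 11.1% and 18.3% of peaks on the left and 11.5% and 18.5% on the right.

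CTCF sites stood farthest above the neighbouring sequence among the motifs searched. A CTCF match lay in the central 150 bases of 1283 peaks (10.5%), against 0.212% of the neighbouring windows, 8.40% of peaks in coding genes, 5.26% of peaks beyond 100 kb, 12.02% of intergenic peaks at 1 to 10 kb and 1.98% of peaks within 1 kb of a start. Matches were narrow in position, and 86.4% of the 1290 matches had their middle within the central 50 bases.

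The CTCF matches also lay in footprints. Of the 1290 matches, 78.3% were wholly inside a footprint in replicate 1, 90.1% in replicate 2 and 75.7% in both, while 5.04% of all windows of 12 bases in the same peaks were inside one in both. Footprints holding a CTCF match had a median length of 30 bases in replicate 1 and 29 in replicate 2, against 10 and 11 for all footprints in distal peaks. The footprint printed in the peak near Pax7, which specifies satellite cells, spans the CTCF match and flanking bases on both sides.

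Peaks with a CTCF match were strong. Their median percentiles were 71.5 in replicate 1 and 78.9 in replicate 2, against 51.3 and 62.6 without one. The share of peaks with a match was 1.37% at a mean percentile up to 20, 6.74% between 40 and 60 and 21.4% above 80. The peak near Chd2 that holds the site printed above had densities of 13.4 and 6.66, with 5 footprints in each library. The peak near Pax7 had 4.61 and 2.42, with 5 footprints in replicate 1 and 3 in replicate 2.

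CAGCTG E-boxes were the most frequent of the 34 motifs searched, on both strands, and gave a different picture in footprints. An E-box lay in 3022 distal peaks (24.7%), against 20.7% of all shared peaks, 26.7% of peaks in coding genes, 27.9% beyond 100 kb, 12.7% within 1 kb of a start and 7.42% of neighbouring windows. By comparison 8.39% of windows of the same length at RefSeq promoters held one. More than 1 E-box was present in 429 peaks with 2 (3.504%, against 0.392% of neighbouring windows) and 59 peaks with 3 or more (0.482%, against 0.0204%).

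E-boxes gathered toward the centre of the peak, from 1.23 matches per 100 peaks in the outermost 20 bases of the 300 on either side to 4.92 in the 20 bases left of the centre. In footprints they were close to other sequence. Of 3577 matches, 17.2% were inside a footprint in replicate 1 and 18.6% in replicate 2, beside 12.1% and 15.9% of all windows of 6 bases. In both libraries 9.11% of matches and 8.76% of windows were inside one. Within 25 bases of the centre the E-box share was 12.9% and that of all windows 16.8%, and farther out they were 6.43% and 4.42%.

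The order also turned with strength. Between percentiles 40 and 60, 7.87% of E-boxes and 4.61% of all windows of 6 bases were in a footprint of both libraries, and above 80 the shares were 17.2% and 21.7%. Peaks with an E-box had median percentiles of 53.9 and 63.0 and peaks without one 53.3 and 65.4, so the groups lay within a few percentiles of each other. The base just 5′ of the E-box, counted on both strands, was G in 33.2% of cases in the peaks and 25.5% in neighbouring windows, and T in 13.2% and 21.3%.

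**Figure D3:**
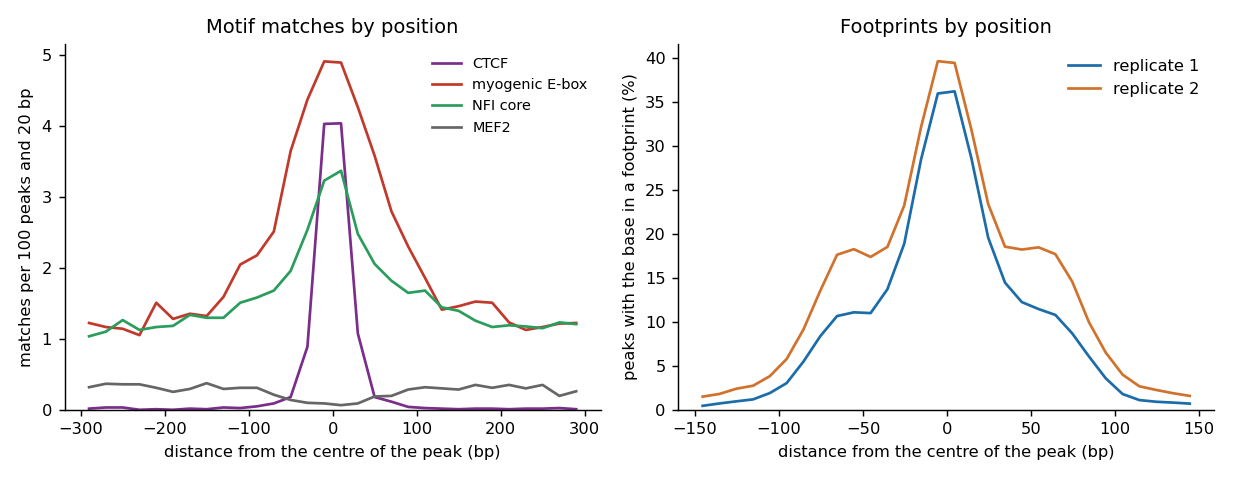
Motif matches per 100 distal peaks in steps of 20 bases (left) and the share of distal peaks with a given base in a footprint (right, replicate 1 in blue and replicate 2 in orange), by distance from the centre of the peak. CTCF matches stand in a narrow column at the centre, E-boxes (myogenic E-box, CAGCTG) and NFI cores form wider peaks, and MEF2 matches dip there.

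Other sites of muscle factors were less frequent or less often in footprints. MCAT, GGAATG, lay in 1300 peaks (10.6%) against 7.87% of neighbouring windows. In a footprint of both libraries were 3.72% of its matches, beside 8.76% of all windows of 6 bases. MEF3, TCAGGTT, another motif of muscle genes, lay in 237 peaks (1.94%) against 2.35% of neighbouring windows. MEF2 lay in 104 peaks (0.849%) against 2.43%, and none of its matches was in a footprint of both libraries. Other AT-rich motifs were also below the neighbouring windows, with TAATTA of homeodomain factors at 1.36% against 3.75% and AGATAA of GATA factors at 3.57% against 7.58%. The part of the higher GC content of the peaks in these differences was not tested.

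AP-1, TGACTCA, the site of FOS and JUN, lay in 607 peaks (4.96%) against 2.74% of neighbouring windows. In a footprint of both libraries were 2.37% of its matches, beside 7.95% of all windows of 7 bases. In the peaks with a mean percentile above 80 it was 9 of 100 matches, beside 21.7% of all windows of 6 bases. The peak near Hk2, the hexokinase of muscle, was 1 of 15 peaks with an AP-1 match in a footprint of both libraries. Its match lies at the right end of the longest run of capitals printed for that peak, and which factor leaves that footprint was not tested. That peak had densities of 2.75 and 1.26 and lay 499 bp from the RefSeq start of the noncoding gene Gm32534.

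NFI, CRE and NRF1 sites were among those in footprints more often than all windows of their length. TTGGCA, the core of the NFI site, lay in 1944 peaks (15.9%) against 7.49% of neighbouring windows, and 19.3% of its matches were in a footprint of both libraries. The full palindromic NFI site occurred in only 13 peaks, with 5 of 13 matches in a footprint of both. CRE, TGACGTCA, the site of CREB and ATF factors, lay in 54 peaks (0.441%, against 0.964% of the other shared peaks), with 44.4% of matches in a footprint of both libraries beside 7.17% of all windows of 8 bases. NRF1 lay in 50 peaks (0.408%, against 2.39%), with 51.9% of matches beside 5.99% of all windows of 10 bases. Median percentiles were 73.3 and 78.7 for peaks with a CRE and 81.4 and 88.1 for peaks with an NRF1 site.

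CAGGTG, an E-box that ZEB factors and E proteins bind, shares letters with the CTCF motif. Of its matches in distal peaks, 238 overlapped a CTCF match and 89.5% of these were in a footprint of both libraries. Of the 1484 that overlapped no match to the CTCF pattern, 20.9% were, beside 8.76% of all windows of 6 bases. CTCF sites that depart from the pattern were not searched, and their part in the 20.9% was not tested. The full NFI site holds the NFI core only where the sixth base, read on either strand, is A, and the site printed near Wnt7b does not. GGGCGG, the GC box of SP and KLF factors, overlapped a CTCF match in 40 of 1592 cases. A match shows that the letters are present in the C57BL/6J reference and not that the factor was bound.

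**Figure D4:**
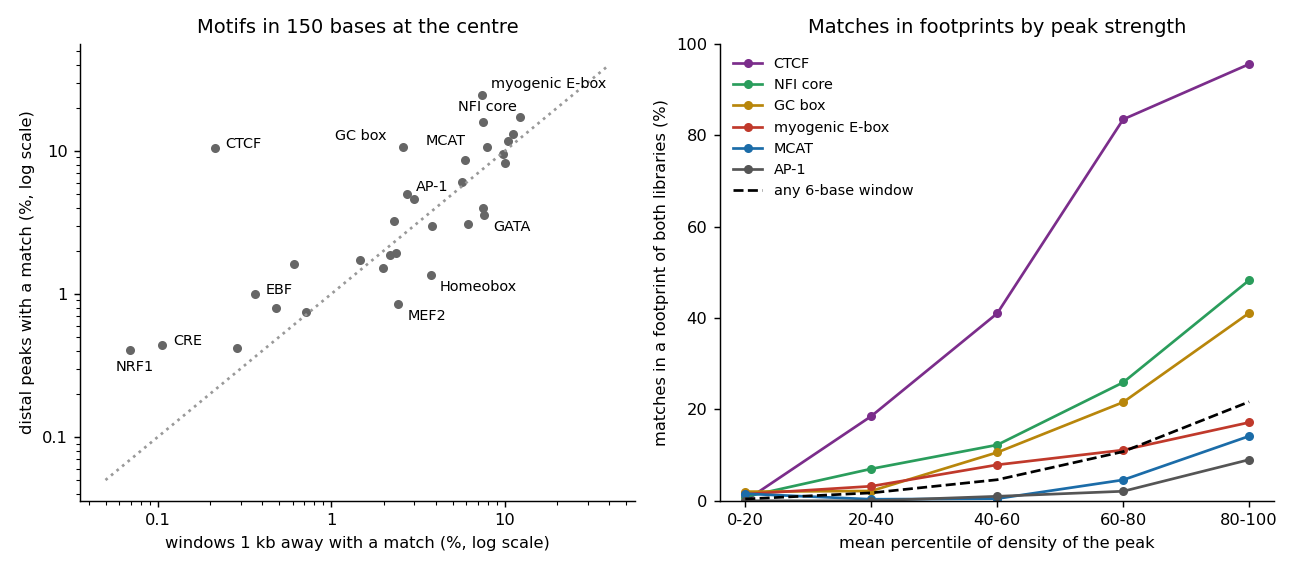
Left, share of distal peaks with a match in the central 150 bases against the share of windows 1 kb away, both on log axes, for motifs found in at least 50 peaks. The dotted line marks equal shares, with CTCF farthest above it and MEF2 below. Right, share of matches wholly in a footprint of both libraries by mean percentile of density, where CTCF reaches 95.6%, the E-box 17.2% and all 6-base windows 21.7% in the strongest peaks.

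A small set of distal peaks had the composition of promoters. CpG-rich peaks, with a CpG ratio above 0.6 and a GC content above 50%, numbered 1039 (8.49%). The share was close to the 8.41% of peaks in coding genes. It was 15.1% at 1 to 10 kb, 4.58% beyond 100 kb, 64.8% within 1 kb of a start and 30.4% of all shared peaks. The CpG-rich distal peaks were stronger, with median percentiles of 71.3 and 77.9 against 52.3 and 63.8 for the other distal peaks. A GC box lay in 33.7% of them and in 8.53% of the others, while CTCF sites lay in 5.49% and 10.9% and CAGCTG E-boxes in 14.9% and 25.6%. Among the 416 distal peaks in the strongest 10% of both lists, 157 (37.7%) were CpG-rich.

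Some of these peaks lay at transcript starts that GENCODE M21 does not list. RefSeq transcript starts of GRCm38.p6 lay within 1 kb of 711 distal peaks (5.81%), while 1.55% of the eligible bases were that close to one. The share was 18.3% of CpG-rich distal peaks and 11.1% of the 416 strongest. Of the 711 nearest starts, 540 (75.9%) belonged to long noncoding RNAs, 89 to transfer RNA genes and 68 to messenger RNAs.

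The strongest peaks include such cases. The peak downstream of the Zfp239 start, printed above, lay 42 bp from the RefSeq start of the noncoding gene Gm38882, with densities of 11.8 and 8.97 and an NRF1 match in a footprint of both libraries. One 34862 bp upstream of Yy1, a zinc finger factor, lay 80 bp from the start of Gm33628, with 13.6 and 8.92. Another, 52158 bp upstream of Wnt7b, a secreted WNT ligand, lay 35 bp from the start of D130051D11Rik, with 14.1 and 7.21. The other 7 of the 10 strongest peaks were more than 1 kb from a RefSeq start.

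Transfer RNA genes were counted separately, and no such share for other RefSeq starts is given here. RefSeq places 169 transfer RNA starts in the eligible sequence, and 60 of them (35.5%) had a distal peak centred within 250 bp. The 60 peaks that lay within 250 bp of a transfer RNA start had median densities of 1.74 in replicate 1 and 1.30 in replicate 2, and ranged from 0.533 to 10.6 and from 0.413 to 6.31. All but 1 of them, 59 of 60, had a footprint in both libraries. Their median percentiles were 74.8 and 81.5, and 97.4% of all distal peaks with a mean percentile of 60 to 80 had one in both. The 60 peaks lay near 29 genes, with 7 near Olfr1423, 5 near Hfe2 (hemojuvelin) and 5 near Trim27.

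The strongest distal peak of all was made of repeated sequence. The peak upstream of Igf2bp3 had densities of 22.4 and 14.1 and 4 footprints in each library. Of its 150 windows of 31 bases, 88.7% occurred again on chromosomes 1 to 19, X or Y, including 107 in an interval of Gphn on chromosome 12 and 76 in one of Lars2 on chromosome 9. From general knowledge its letters are those of part of the 28S ribosomal RNA, whose gene has many copies, but no full 28S sequence was used here and that identity was not tested. None of the windows of the other 9 strongest peaks occurred again.

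The next strongest peaks had single-copy sequence. The peak 14548 bp upstream of Zfp395 had densities of 20.2 and 11.1, with 9 footprints in replicate 1 and 6 in replicate 2. One 72665 bp upstream of Irf2bp2 had 14.4 and 10.6, and an NFI core in a footprint of both libraries. Further strong peaks lay 63571 bp downstream of the Cstad start (14.7 and 9.57), 21847 bp downstream of that of Ccne1, the cyclin E gene (14.1 and 9.38), 10041 bp upstream of Slc38a2, an amino acid transporter (13.3 and 7.50), and 39105 bp upstream of Ptma (12.6 and 7.83). The values of replicate 1 were higher in each of the 10.

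Across all distal peaks repeated sequence was uncommon and went with low density. More than 50% of the 31-base windows occurred again in 222 peaks (1.81%), whose median percentiles were 28.2 and 33.7, against 53.6 and 65.0 for the rest. The share of such peaks was 13.3% at a mean percentile up to 20 and 0.726% above 80.

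By nearest coding start the distal peaks were spread over 5255 genes, 39.6% of the 13267 that had any eligible sequence. A single peak belonged to 2453 genes, 2 to 1242 genes, and 10 or more to 67. Which gene a peak acts on, if any, is not known from these data, and the nearest start is only a position. Eligible sequence was not counted by side for single genes, so the side on which their peaks lie may follow from where such sequence exists.

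Sik1, a kinase induced by cyclic AMP, had the most, with 23 peaks from 86146 bp upstream to 88793 bp downstream of its start. Their densities ran from 0.317 to 5.45 in replicate 1 and from 0.263 to 3.43 in replicate 2, and 15 of 23 had a footprint in both. The strongest, 37157 bp upstream, held a CAGCTG E-box in a footprint of both libraries. A group 16857 to 21837 bp upstream was weak in both, with densities of 0.317 to 0.560 in replicate 1 apart from 1 peak of 0.905.

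Dlk1, an imprinted gene of the Notch ligand family expressed in growing muscle, had 21 peaks, 18 of them upstream. Their median densities were 1.84 and 1.14, and 20 of 21 had a footprint in both libraries. The strongest in replicate 1 lay 58848 bp upstream with a density of 5.33, a percentile of 92.9 in replicate 1 and 92.1 in replicate 2, and a CTCF match in a footprint of both. The strongest in replicate 2 lay 14928 bp upstream with 5.10 and 3.04. The peak farthest downstream, 68497 bp past the start and before the start of Meg3, was CpG-rich at a ratio of 1.21 and of middling strength, with percentiles of 56.6 and 73.4.

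Lrrc74a had 17 peaks in 45.2 kb of eligible sequence. They were all downstream and within 36.6 kb of each other, from 33665 to 70068 bp past its start. All 17 had a footprint in both libraries, and their median percentiles were 78.0 and 84.5. The strongest had a density of 10.5 in replicate 1 and 6.59 in replicate 2, with an NFI core in a footprint of both. Calcoco1 had 16 peaks, and Cstad, Irs2, which relays insulin signals, Gm11084 and B4galt5 had 15 each.

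**Figure D5:**
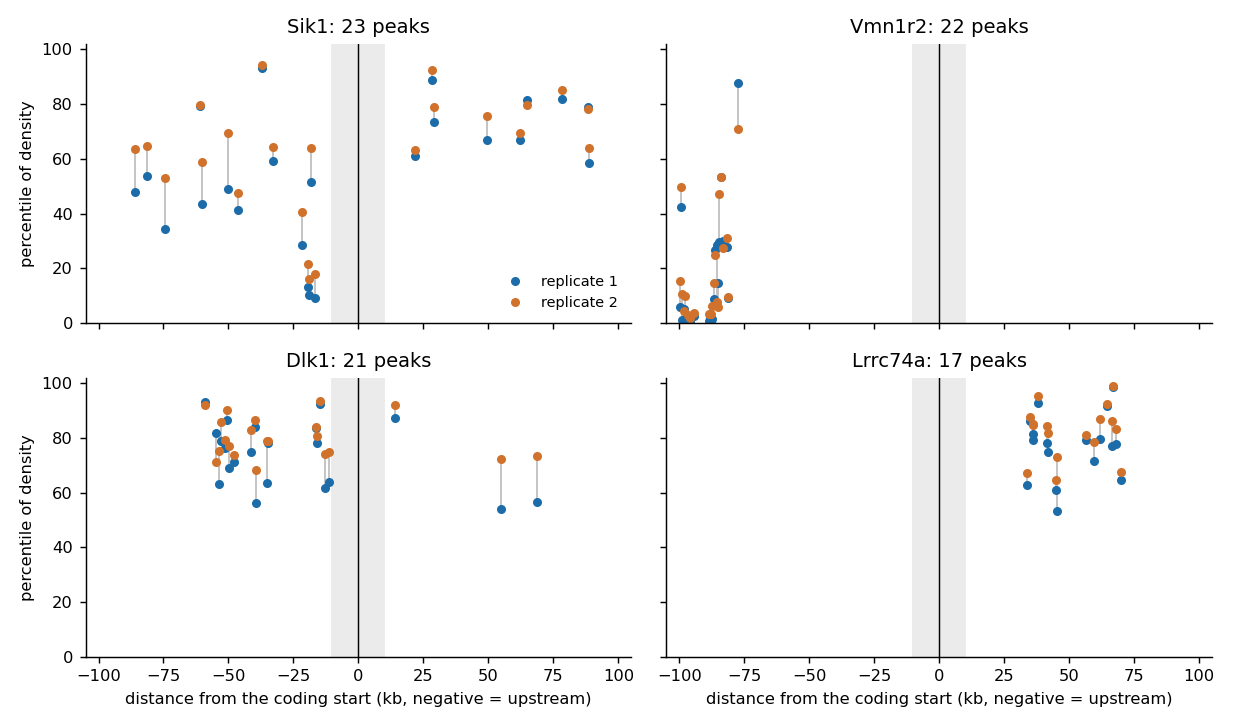
Percentile of density of each distal peak around 4 of the genes with most of them, in replicate 1 (blue) and replicate 2 (orange) joined by a grey line, by distance from the coding start. The grey band is the 10 kb on either side that the rule leaves out. The peaks of Dlk1 and Lrrc74a lie above a percentile of 50 in both libraries, and those of Vmn1r2 are mostly in the lowest part of the range.

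Other genes with many peaks had crowded weak peaks or copied sequence. Vmn1r2, a vomeronasal receptor gene, had 22 peaks within 22.6 kb, with median percentiles of 7.33 and 9.74. Of these, 20 held at least 1 window found elsewhere in the genome, and 3 had more than 50% of their windows repeated. Gm15319 had 19 peaks, 18 of which had more than 50% of their windows repeated. The densest group of all, 17 peaks within 10 kb between B4galt5 and Ptgis at chr2:167268361-167278560, had median percentiles of 11.6 and 12.5, and 4 of 17 peaks had footprints in both libraries, but 15 of 17 were in the shorter lists of both. Lemd2 had 17 peaks, 10 of them within 10 kb.

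Counts around genes of known function were taken from 21 lists, and the counts below are descriptions beside the 39.6% of all genes with eligible sequence that had a peak. Genes of fibroblasts and extracellular matrix had peaks at 17 of 19 with eligible sequence, satellite cell genes at 11 of 13, immediate early and AP-1 genes at 12 of 14, imprinted growth genes at 7 of 10, myogenic regulators at 10 of 15 and sarcomere genes at 10 of 17. Lists with lower shares were excitation-contraction coupling genes at 5 of 9, muscle metabolism genes at 3 of 8 and pericyte and smooth muscle genes at 2 of 5. The numbers were 1 of 8 for lymphocyte, 2 of 9 for neuronal, 2 of 9 for keratinocyte and 3 of 9 for hepatocyte genes. These shares take no account of eligible sequence per gene, and more of it leaves more room for a peak. The 19 matrix genes had 1.65 Mb of it, the 13 satellite cell genes 0.943 Mb and the 17 sarcomere genes 0.344 Mb. Per Mb of eligible sequence there were 75.6 peaks for sarcomere, 74.9 for imprinted, 53.5 for immediate early and 49.8 for myogenic regulator genes, against 24.9 for all genes. Matrix genes had 50.3 and satellite cell genes 42.4. Values were lower for muscle metabolism (30.4), endothelial (27.5), excitation-contraction coupling (26.2) and pericyte and smooth muscle genes (17.0), in or near the range of the foreign lists below. Macrophage genes had 55.9 from 6 peaks, and 21 of the 40 peaks of imprinted genes were those of Dlk1. The lists of cell types foreign to muscle ranged from 8.27 for neuronal through 14.3 for keratinocyte and 21.9 for hepatocyte to 30.1 for lymphocyte genes.

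Among the myogenic regulators Tcf12, an E protein that pairs with MYOD, had 7 peaks, Tead1 6, Mef2a and Mef2c 5 each and Myod1 4, while Myf5 and Myf6 had none. Vgll2, a TEAD cofactor gene, also had none, in 98.4 kb of eligible sequence.

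Pax7 had 3 peaks in 57.25 kb of eligible sequence, all upstream and each with a CTCF match. The strongest, printed above, had densities of 4.61 and 2.42, and those 39278 and 43943 bp upstream had 0.864 and 0.536, and 1.04 and 0.680. Only the first had its CTCF match in a footprint of both libraries. Among satellite cell genes Spry1, an inhibitor of growth factor signalling, had 7 peaks with densities of 0.567 to 0.992 in replicate 1, all weaker than the strongest at Pax7.

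Among sarcomere genes Tpm1, which encodes a tropomyosin, had 8 peaks. One lay 31088 bp downstream of its start with densities of 7.30 and 4.01, 187 bp from the RefSeq start of the noncoding gene Gm30639, and the other 7 lay upstream with 0.581 to 1.25 and 0.393 to 1.01. Myl3, a myosin light chain gene, had 2 strong peaks, with densities of 9.54 and 6.04 and of 6.40 and 3.87. They lay about equally far from the RefSeq start of Prss42, at 15425 bp from Myl3 and 15667 bp from Prss42 for the stronger one. Des, the muscle intermediate filament gene, had 4 peaks with densities of 0.675 to 1.499 in replicate 1, and Ttn and Neb had none in 8.69 and 9.48 kb of eligible sequence.

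The genes of collagens differed in their number of peaks. Col1a2 had 13 and Col1a1 had 12, Col5a1 had 9, Col6a2 had 5, Col6a3 had 4, Col6a1 had 3 and Col3a1 had 1 in 114.4 kb of eligible sequence. All 12 peaks of Col1a1, in 62.8 kb of eligible sequence, lay upstream, from 20323 to 69853 bp before the start. The strongest at Col1a1, 63133 bp upstream, had densities of 3.83 and 3.01, and the strongest at Col1a2, 46933 bp upstream, had 3.801 and 2.94. The matrix list as a whole held 83 peaks with median percentiles of 57.2 and 68.9.

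The immediate early list had the highest strength among lists with more than 30 peaks, with median percentiles of 73.2 and 82.3 over 39 peaks, all of which had a footprint in both libraries. Fos, the AP-1 subunit, had 11 peaks. The pair flanking the gene most closely stood out, with 11.1 and 6.12 at 18619 bp upstream and 10.3 and 6.00 at 12241 bp downstream. The latter is printed above with its CArG box, and that match lay in a footprint of both libraries. The other 9 peaks of Fos had densities of 0.925 to 1.86 in replicate 1.

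The strongest peaks of 3 other lists differed in density. At Hlf, a clock-controlled transcription factor gene, the printed peak had densities of 11.8 and 6.64, and its CACGTG, the E-box of the clock proteins, lay in a footprint of both libraries. At Tbx4, from the hindlimb list, 4 peaks lay 45256 to 98796 bp downstream of the start. Their densities were 0.621 to 2.05 in replicate 1 and 0.586 to 1.23 in replicate 2. All 7 lymphocyte-list peaks belonged to Cd2. The strongest of them had 2.57 and 1.77 and a CAGCTG E-box in a footprint of both libraries. The footprint around that E-box also holds a near match to the CTCF pattern, which was counted only where exact. Which factor leaves that footprint was not tested, and nearness to Cd2 is a matter of position only.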

How the data were processed

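DNase-seq libraries of 2 biological replicates from 1 group were analysed, and no comparison between groups was possible. Per the file headers and listings deposited with the data, all intervals are on mm10, and each library has lists of its own. Neither the aligner nor the peak caller was stated in the sources used here. The authors deposited a cut density (signal) for each peak, with a longer and a shorter list per library, 94295 and 54532 peaks in replicate 1 and 123291 and 73623 in replicate 2. The deposited footprints carry 1 constant score, 0.01, and only their positions were used. The deposited false discovery rates (q-values), all at or below 0.05, were merged into stretches, whose median length at the distal peaks was 234 bp in replicate 1 and 265 bp in replicate 2. All densities below 1 were whole multiples of 1 step per library within a tolerance of 0.1 step, and the steps differed 2.03-fold. Total depth is unknown, so precision is shown only by the 2 libraries.

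Overlap, annotation (GENCODE M21), motif and footprint counts were computed in Python 3.11.15 with numpy 2.4.6, pandas 2.3.3 and bedtools 2.31.1, and checked on simulated intervals and planted motifs. 34 motifs were searched on both strands in 150 bases of GRCm38.p6 at the peak centre and in windows 1000 bp to either side. 1 genome copy of these mice is CAST, so sites changed by its variants were not seen. Masking is that of the reference sequence. RefSeq starts and windows of 31 bases searched again in the genome were added after seeing the data. Named peaks were the 10 with the highest mean percentile, the strongest for each gene list and for each of 9 motifs with a match in a footprint of both libraries, the genes with most peaks, the densest groups and the peaks next to the distance limits. Peaks on chromosome 18 were left out of the named peaks. Others were named because their gene was in a list, after their values were seen. The peaks, lists and motifs were chosen with earlier results of these data known. No p-values were computed, since peaks are not replicates. Alternatives covered the peak list, overlap, library, strength, window and distance limits. Peaks near 1 gene are not reported here.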

Additional observations from a re-analysis of the deposited data

How the results depend on the processing

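No paired analysis was possible because there is 1 group of 2 libraries and no contrast. Of 83 values under other settings, 51 stayed within the spread between the libraries (for counts, within 1.5 times) and 32 moved. With the shorter peak lists there were 7056 distal peaks, 14.3 per Mb, 100% in the shorter lists by construction, with a CpG ratio of 0.292, 6.48% centred in masked sequence and 13 genes with 10 or more peaks. Among the stronger 50% of shared peaks there were 5072, 10.3 per Mb, with a median mean percentile of 77.9, 96.0% in the shorter lists, a CpG ratio of 0.306 and 5.38% in masked sequence. Without the need for the other library (leaving out replicate 1 or 2) there were 15558 to 21733 peaks, 31.6 to 44.2 per Mb, with a median percentile of 43.8 to 45.1, a footprint in both libraries at 48.7% to 68.2%, 32.5% to 45.4% in both shorter lists, a GC content of 53.3% to 54.7%, a CpG ratio of 0.25 to 0.262, E-boxes in 21.3% to 23.3% and 10.6% to 11.0% in masked sequence. E-boxes lay in 18.9% of peaks with a window of 100 bases and 33.7% with 300. The median distance of 35.1 kb became 25.3 kb for peaks at 10 to 50 kb and 44.5 kb at 20 to 100 kb. Under an alternative chosen after seeing the data, with starts of all transcripts of coding genes, it was 33.4 kb, and 3.05% of peaks, not 3.25%, were nearest to a listed gene. Leaving out peaks centred in masked sequence, also chosen after seeing the data, moved none of the values computed. The cause of these changes was not tested beyond what each setting fixes. Depth is unknown, so what it limits was not tested.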

Other observations

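Crowded places among the distal peaks differed in strength. The run of 10 peaks within 10 kb near Olfr1423 had median percentiles of 75.4 and 79.8 and footprints in both libraries at all 10, and 7 peaks near that gene lay within 250 bp of a transfer RNA start. The run of 9 near Hfe2 had median percentiles of 75.6 and 82.9, and 5 peaks near that gene lay within 250 bp of one. In the run of 10 near Lemd2 the medians were 22.3 and 39.5, with footprints in both libraries at 5 of 10. Windows of 31 bases that occur again in the genome were present in 7 of 10, 6 of 9 and 0 of 10 of these peaks.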
